A study of Mus musculus with 12 samples.

Results

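The genes described here are 41 interferon-stimulated genes, measured by mRNA sequencing of mouse hippocampus. They were taken from a list of 43 symbols of genes known to respond to interferon, and each had to be counted in at least 3 of the 12 libraries. The 41 genes were found among 22236 genes in the table of expected counts, and Ifi27 and Rnf213 were not analysed here. The list holds antiviral effectors, the ISG15 conjugation genes, TRIM and PARP family genes and other known targets. No threshold on a measured change entered the rule.

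Male mice of 2 inbred strains, C57BL/6J (B6) and DBA/2J (D2), received at 3-5 months either AAV9-shRNA-Hp1bp3, an adeno-associated virus carrying a short hairpin RNA against Hp1bp3 (KD), or AAV-scrmb-shRNA, the same kind of vector with a scrambled hairpin (Ctrl). Injections were bilateral into the dorsal hippocampus, and the whole hippocampus was collected at least 6 weeks later, so that cells outside the injected area and cells of every type contributed RNA. Each of the 4 groups (B6 Ctrl, B6 KD, D2 Ctrl, D2 KD) had 3 libraries, 1 per mouse. Every mouse carried a virus and a hairpin, and no uninjected animal was among the groups. Hp1bp3 encodes heterochromatin protein 1 binding protein 3, a chromatin protein related to linker histones.

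Interferons are secreted signals of antiviral defence. Type I interferons bind their receptor and, through JAK kinases, activate a transcription factor complex that holds IRF9 and binds the interferon-stimulated response element (ISRE) in front of target genes. Type II interferon acts mainly through a separate element called GAS. The induced proteins block viral entry, replication and protein synthesis, tag or degrade proteins, and damp or amplify the signal itself, and in the brain microglia, astrocytes, endothelial cells and neurons can all express such genes.

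Because many interferon-stimulated genes are known to carry the ISRE in front of their start, the sequence before the start of 4 members is shown. Beside them is that of Daxx, the member with the smallest change in B6 KD. All 4 hold a match, whereas 12 of the 33 members in the wider search below did, so the 4 do not represent the list. Each run covers the 150 bases before an annotated start in the RefSeq annotation of GRCm38.p6, written 5′ to 3′ on the strand of the gene. Capitals mark matches to the core of the ISRE, searched as 2 copies of GAAA with any 2 bases between them and, for the other strand, as 2 copies of TTTC spaced likewise. Overlapping matches run together.
Isg15 upstream, chr4:156200819-156200968, minus strand: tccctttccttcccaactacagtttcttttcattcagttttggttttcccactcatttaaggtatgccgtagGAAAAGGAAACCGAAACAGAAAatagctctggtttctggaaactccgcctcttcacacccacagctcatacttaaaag
Bst2 upstream, chr8:71537473-71537622, minus strand: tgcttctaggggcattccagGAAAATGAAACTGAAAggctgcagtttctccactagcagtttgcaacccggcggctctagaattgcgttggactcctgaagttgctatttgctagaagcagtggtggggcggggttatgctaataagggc
Ddx60 upstream, chr8:61927937-61928086, plus strand: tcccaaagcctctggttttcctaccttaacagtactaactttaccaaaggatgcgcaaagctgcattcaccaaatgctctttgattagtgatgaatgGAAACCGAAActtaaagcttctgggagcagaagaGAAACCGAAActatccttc
Trim30a upstream, chr7:104465194-104465343, minus strand: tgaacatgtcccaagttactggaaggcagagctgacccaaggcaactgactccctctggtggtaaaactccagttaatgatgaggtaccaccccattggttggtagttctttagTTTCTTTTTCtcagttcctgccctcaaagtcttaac
Daxx upstream, chr17:33909295-33909444, plus strand: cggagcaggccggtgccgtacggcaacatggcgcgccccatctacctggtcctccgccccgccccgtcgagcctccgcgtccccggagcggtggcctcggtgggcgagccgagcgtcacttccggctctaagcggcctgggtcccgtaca

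Isg15 held 3 overlapping matches, the first beginning 78 bases before its start. The Bst2 window held 2 overlapping matches from base 130 before the start. In Ddx60, separate matches began 53 and 19 bases before the start. Trim30a carried its match on the opposite strand, 36 bases before the start shown, and the 150 bases before its other annotated start held none. None of the 3 Daxx windows held one. Among members, 33 of 41 had at least 1 promoter in the reference table, with 47 promoters in all, each of 300 bases from 250 before to 50 after a start. The ISRE core was in 13 of these 47 promoters, or 27.7%, against 3.44% of the 32851 promoters of all genes. GAS, searched as TTCNNNGAA, was in 5 of the 47, or 10.6%, against 8.30% of all promoters. A match describes these letters only, and the reference is that of C57BL/6J, so D2 sequence may differ.

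Hp1bp3 itself was read first in every library, as the check of the knockdown. Hp1bp3 levels are given in CPM, the library's counts brought to a common total with TMM scaling, and were 308, 294 and 310.1 in B6 Ctrl and 185, 182 and 259 in B6 KD. In D2 they were 226, 215 and 234 in Ctrl and 177, 162 and 229.5 in KD. All B6 KD libraries lay below B6 Ctrl, whereas the library labelled D2 KD 3 lay inside the D2 Ctrl range. Its label was kept. The log2 fold change was -0.54 ± 0.15 (SE) in B6, with an edgeR adjusted p of 0.076, and -0.25 ± 0.15 in D2, with an edgeR adjusted p of 1. The B6 change was called by DESeq2 (adjusted p 0.00912) and by limma-voom with library quality weights (adjusted p 0.00339), an alternative chosen after seeing the data. It was also called by edgeR without B6 KD 3 (-0.76, adjusted p 0.0226) or without the library labelled D2 KD 3 (-0.54, adjusted p 0.0469). With the latter omitted, the D2 estimate was -0.41 (edgeR adjusted p 0.554). Without B6 Ctrl 1, B6 Ctrl 3 or D2 Ctrl 1, edgeR called no gene in B6, Hp1bp3 included. Nor did it without B6 KD 1 or B6 KD 2, or with the total count or the choroid plexus score as a covariate. Library totals ran from 18213084 to 39420219 expected counts, and markers of neurons and of hippocampal subfields were counted in all 12 libraries.

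The interferon-stimulated genes were higher in B6 KD than in B6 Ctrl almost throughout the list. By edgeR's quasi-likelihood test over 15853 genes, 36 of 41 members were called higher at an adjusted p below 0.05 and none lower. In that comparison 2.64% of all genes tested were called in either direction, and 1.76% were called higher. The median log2 fold change of the members was 2.37, against 0.00 over all genes tested. Ratios of mean CPM ran from 1.10 for Daxx to 29.4 for Ifi44, and the ratio was at least 2 for 34 members and at least 10 for 9. All 3 B6 KD libraries lay above all 3 B6 Ctrl libraries for 38 members, against 13.9% of all genes tested, and Cmpk2, Znfx1 and Daxx were the exceptions. In whole tissue, more cells of a type and more RNA per cell cannot be told apart.

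These B6 calls lay close to the threshold. The adjusted p-values of the called members ran from 0.0326, the smallest of all genes, to 0.0488, and the number of calls moved with single libraries. Leaving out B6 Ctrl 1, B6 Ctrl 3, B6 KD 1, B6 KD 2 or D2 Ctrl 1 left 0 of 41 members called, although 39 or 40 of them kept an unadjusted p below 0.05 in each of these fits, where 13.9% to 21.0% of all genes did. In those 5 fits 0% of all genes were called. Without D2 Ctrl 2, B6 Ctrl 2 or D2 KD 1 the count was 10, 17 or 19, with 0.280%, 1.48% and 0.773% of all genes called. Without B6 KD 3 it was 39 and without D2 Ctrl 3 it was 37, with 4.94% and 3.69% of all genes called, and it was 36 without D2 KD 2 or the library labelled D2 KD 3, with 2.98% and 4.19%. Estimates were steadier than calls, since all 41 stayed above 0 in each of the 24 alternatives and the member median stayed between 2.10 and 2.58. DESeq2 called 40 members, where it called 9.82% of all genes, and limma-voom called 19, where it called 2.08%, or 21 without robust estimation, where it called 2.32%.

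**Figure D1:**
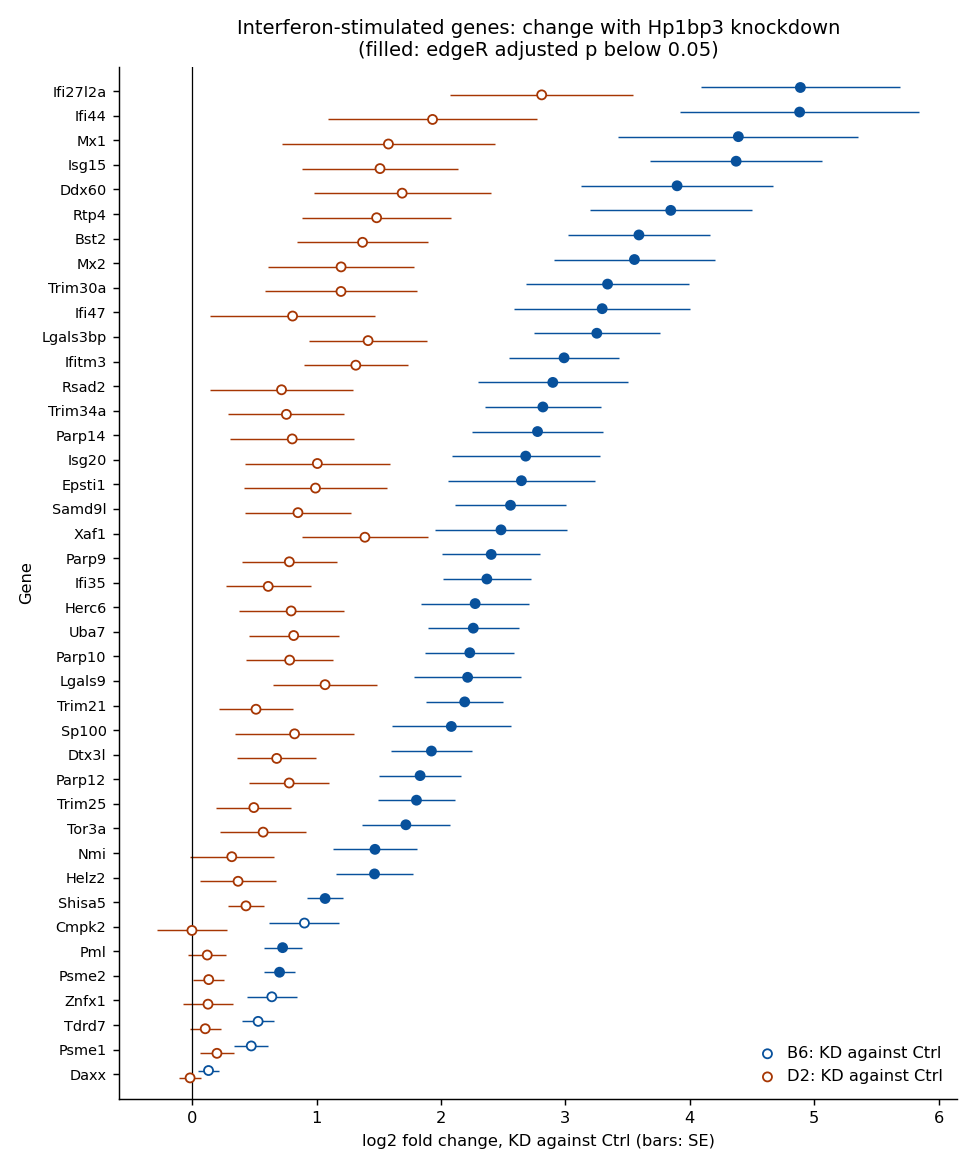
Log2 fold change of KD against Ctrl (x axis) for the 41 genes (y axis, ordered by the B6 value), in B6 and D2. Points are edgeR estimates, bars are standard errors and filled points have an adjusted p below 0.05. The B6 estimates run from 0.13 for Daxx to 4.89 for Ifi27l2a with 36 filled, and each D2 estimate lies to the left of its B6 estimate with none filled.

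Values in every library are given for 10 genes, Isg15 and the gene of each role with the largest B6 change. In D2, no member was called by edgeR in KD against Ctrl, where 0% of all genes were called, with adjusted p-values of 1 throughout. An unadjusted p below 0.05 was found for 14 of 41 members, against 2.85% of all genes. DESeq2 and limma-voom also called 0 members in D2, with 0.00525% and 0% of all genes called. Of the members, 20 and 5 had an unadjusted p below 0.05 by these tools, against 2.82% and 2.38% of all genes. The median D2 log2 fold change was 0.80, against 0.00 over all genes tested, and it was 1.09 without the library labelled D2 KD 3, with 0 members called and 25 at an unadjusted p below 0.05, against 7.69% of all genes. Without D2 Ctrl 3 the median was 1.11, again with 0 called, and without D2 KD 2 it was 0.45. Replicate numbers below are names in listing order and carry no pairing. Levels are comparable within a gene only, because no gene length entered the CPM. Cmpk2, Znfx1, Trim34a, Daxx and Xaf1, also given with library values, were chosen after their values were seen.

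ISG15 conjugation was the first role examined. Isg15 (ENSMUSG00000035692, chr4:156199424-156200818 in GRCm38) encodes a ubiquitin-like protein that is joined to other proteins during the interferon response. Its CPM values were 1.62, 1.64 and 1.36 in B6 Ctrl and 35.8, 43.1 and 17.1 in B6 KD. In D2 Ctrl they were 1.58, 1.98 and 5.82, and in D2 KD 11.01, 13.4 and 2.44. B6 KD lay far above B6 Ctrl in every library, whereas the library labelled D2 KD 3 lay inside the D2 Ctrl range. Isg15 rose in B6 by 4.37 ± 0.69 (log2 fold change ± SE, n = 3 against 3), with an edgeR adjusted p of 0.0326. The D2 estimate was 1.51 ± 0.63, with an edgeR adjusted p of 1. Uba7, the activating enzyme of ISG15, rose in B6 by 2.26 ± 0.36, and Herc6, the mouse ISG15 ligase, by 2.27 ± 0.44. All 3 genes of the conjugation route were called in B6 and none in D2, against 2.64% and 0% of all genes tested.

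**Figure D2:**
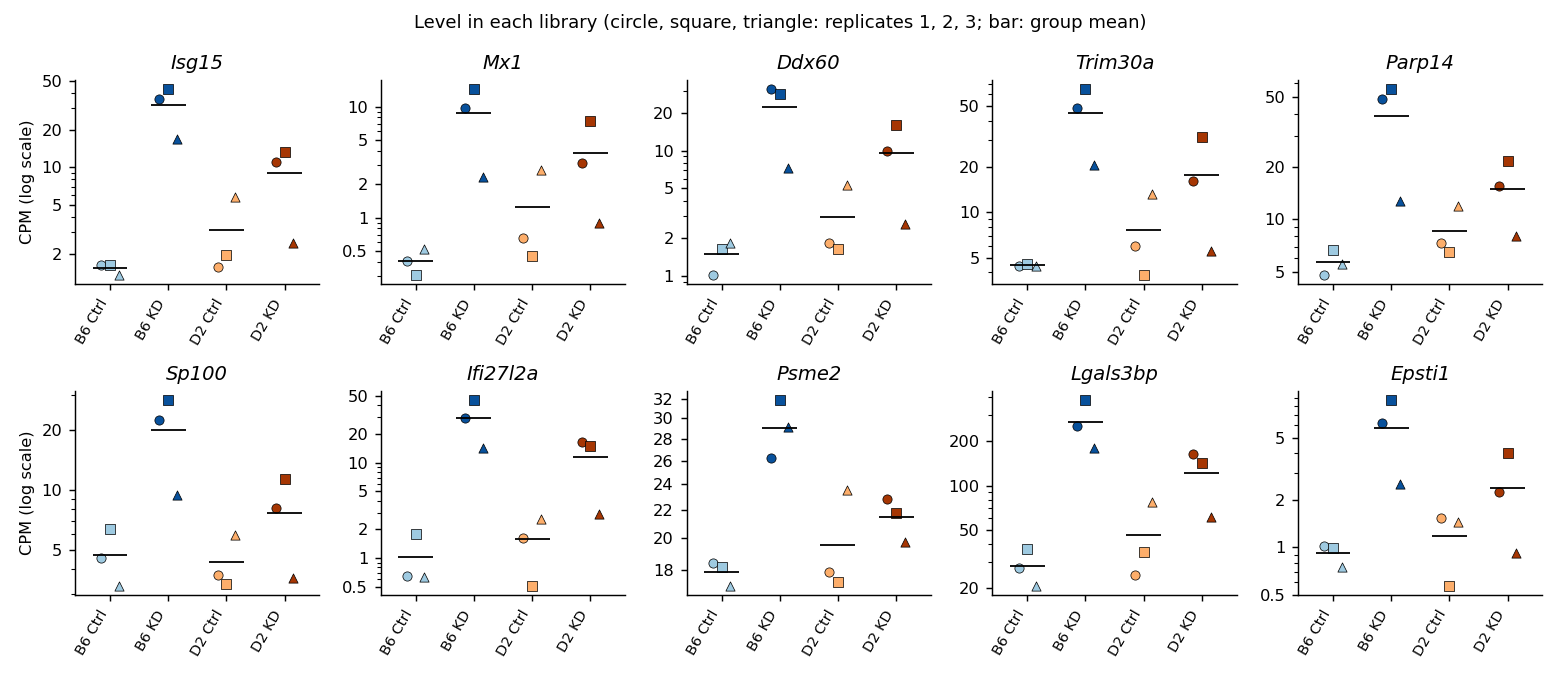
Level of 10 genes in each library, in CPM on a log scale (y axis), for the 4 groups (x axis). Circles, squares and triangles are replicates 1, 2 and 3 and bars are group means. Apart from the narrow range of Psme2, the triangle is the lowest point of B6 KD and D2 KD in each panel, and D2 Ctrl has a high triangle in 9 of 10 panels.

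Direct antiviral effectors were called higher in B6 in 8 of 9 cases, against 1.76% of all genes tested. Mx1 (ENSMUSG00000000386, chr16:97447035-97462907) encodes a dynamin-like GTPase against influenza-type viruses, and many inbred mouse strains, C57BL/6J among them, carry a defective allele. Mx1 was at 0.405, 0.306 and 0.520 CPM in B6 Ctrl and at 9.70, 14.4 and 2.34 in B6 KD. The D2 Ctrl libraries stood at 0.650, 0.453 and 2.67 and D2 KD at 3.11, 7.42 and 0.885. B6 groups did not overlap, although B6 KD 3 was well below the other B6 KD libraries, and the D2 groups overlapped through D2 Ctrl 3 and the library labelled D2 KD 3. Its B6 log2 fold change was 4.39 ± 0.97 (edgeR adjusted p 0.0448) and its D2 estimate 1.58 ± 0.86 (edgeR adjusted p 1). Mx1 and its paralog Mx2 shared reads, since in all 4 libraries where both had decimal counts the sum was whole, so their split is uncertain. Mx2, annotated in GRCm38 as a polymorphic pseudogene, rose by 3.55 ± 0.65 in B6. Rtp4, a chaperone-like antiviral gene, rose by 3.85 ± 0.65, and Bst2, the tetherin that holds budding virus at the cell surface, by 3.59 ± 0.57. Ifitm3, which blocks viral fusion, rose by 2.99 ± 0.44, and Rsad2, the viperin enzyme, by 2.90 ± 0.60. Isg20, an exonuclease, rose by 2.68 ± 0.59, and Samd9l by 2.56 ± 0.44. Cmpk2, a nucleotide kinase that neighbours Rsad2 in the genome, had an estimate of 0.90 ± 0.28 and was not called (edgeR adjusted p 0.102). In B6 Ctrl, Cmpk2 was at 22.6, 24.01 and 23.9 CPM, and in B6 KD at 51.1, 58.2 and 22.6, with B6 KD 3 inside the Ctrl range.

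Helicase family members differed widely among themselves. Ddx60 (ENSMUSG00000037921, chr8:61928087-62038244), a DExD/H-box helicase linked to viral RNA sensing, was at 1.02, 1.64 and 1.82 CPM in B6 Ctrl against 31.1, 28.5 and 7.28 in B6 KD. D2 libraries were at 1.83, 1.64 and 5.37 in Ctrl and at 9.99, 16.1 and 2.62 in KD. Every B6 KD library exceeded B6 Ctrl, whereas the D2 groups overlapped. Ddx60 rose by 3.90 ± 0.77 in B6 (edgeR adjusted p 0.0379), with a D2 estimate of 1.69 ± 0.71 (edgeR adjusted p 1). Helz2, a nuclear coactivator helicase, rose by 1.47 ± 0.31 in B6. Znfx1, a helicase on mitochondria that senses double-stranded RNA, had an estimate of 0.64 ± 0.20 and was not called (edgeR adjusted p 0.102). Znfx1 was at 76.0, 85.4 and 86.3 CPM in B6 Ctrl and 138, 164 and 84.2 in B6 KD, where B6 KD 3 fell among B6 Ctrl.

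All 4 TRIM ubiquitin ligases were called higher in B6, against 1.76% of all genes tested. Trim30a (ENSMUSG00000030921, chr7:104409025-104465193), a mouse TRIM protein that restrains inflammatory signalling, was at 4.40, 4.51 and 4.40 CPM in B6 Ctrl and at 49.2, 65.2 and 20.4 in B6 KD. D2 Ctrl had 5.95, 3.85 and 13.2, and D2 KD 16.1, 31.3 and 5.57. The B6 Ctrl libraries were nearly equal and far below B6 KD, whereas the library labelled D2 KD 3 sat between the D2 Ctrl libraries. The B6 change was 3.34 ± 0.66 (edgeR adjusted p 0.0379), and the D2 estimate 1.20 ± 0.61 (edgeR adjusted p 1). Trim34a rose by 2.82 ± 0.47 in B6, Trim21, the cytosolic antibody receptor, by 2.19 ± 0.31, and Trim25, which ubiquitinates the RNA sensor RIG-I, by 1.80 ± 0.31. Trim34a had the lowest D2 KD level relative to B6 KD, with 3.08, 6.34 and 2.21 CPM in D2 KD against 30.8, 32.7 and 12.2 in B6 KD and 3.86, 4.09 and 2.78 in B6 Ctrl. Trim30a and Trim34a had decimal counts in 11 of 12 libraries, a sign of reads shared with other loci, and both belong to a cluster of related genes on chromosome 7, so their levels, and differences between strains read on separate genomes, are uncertain.

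The PARP family and its partner Dtx3l rose together in B6, with 5 of 5 called higher, against 1.76% of all genes tested. Parp14 (ENSMUSG00000034422, chr16:35832874-35871544), an ADP-ribosyltransferase, was at 4.83, 6.69 and 5.58 CPM in B6 Ctrl and 48.6, 55.8 and 12.7 in B6 KD. In D2 it was at 7.34, 6.51 and 11.9 in Ctrl and 15.5, 21.5 and 8.10 in KD. B6 KD 3 was much closer to B6 Ctrl than the other B6 KD libraries were, and in D2 the third KD library lay inside the Ctrl range. Parp14 rose by 2.78 ± 0.52 in B6 (edgeR adjusted p 0.0361), with 0.80 ± 0.50 in D2 (edgeR adjusted p 1). Parp9 and Dtx3l, whose proteins form a ubiquitin ligase complex, rose by 2.40 ± 0.39 and 1.92 ± 0.33, and both had decimal counts in all 12 libraries. Parp10 rose by 2.23 ± 0.36 and Parp12 by 1.83 ± 0.33.

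Nuclear body genes split by size of change. Sp100 (ENSMUSG00000026222, chr1:85649988-85709998), a component of PML nuclear bodies with decimal counts in 11 of 12 libraries, was at 4.56, 6.38 and 3.30 CPM in B6 Ctrl and 22.6, 28.2 and 9.45 in B6 KD. D2 Ctrl values were 3.75, 3.40 and 5.93 and D2 KD values 8.18, 11.4 and 3.605. The B6 groups did not overlap, and the library labelled D2 KD 3 lay among D2 Ctrl. Sp100 rose by 2.08 ± 0.48 in B6 (edgeR adjusted p 0.0488), and its D2 estimate was 0.82 ± 0.48 (edgeR adjusted p 1). Pml, the scaffold of these bodies, rose by 0.73 ± 0.15 in B6. Daxx, a histone H3.3 chaperone found in the same bodies, had 26.6, 25.4 and 26.2 CPM in B6 Ctrl and 27.4, 32.3 and 26.1 in B6 KD. Its estimates were 0.13 ± 0.09 in B6 (edgeR adjusted p 0.433) and -0.02 ± 0.09 in D2.

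The IFI-named genes held the largest changes. Ifi27l2a (ENSMUSG00000079017, chr12:103442167-103443680), a small membrane protein of the ISG12 family, was at 0.647, 1.80 and 0.636 CPM in B6 Ctrl and 29.6, 45.1 and 14.4 in B6 KD. D2 libraries had 1.64, 0.509 and 2.59 in Ctrl and 16.7, 14.8 and 2.88 in KD. Neither strain's groups overlapped, and in D2 only Ifi27l2a and Tdrd7 of the 41 members had all KD libraries above all Ctrl libraries, against 2.93% of all genes tested. For Ifi27l2a the margin in D2 was narrow, set by the library labelled D2 KD 3 and D2 Ctrl 3. It rose by 4.89 ± 0.80 in B6 (edgeR adjusted p 0.0326), and its D2 estimate of 2.81 ± 0.74 was the largest of the members (edgeR adjusted p 1). Leaving out the library labelled D2 KD 3 moved that estimate to 3.27, at an edgeR adjusted p of 0.366. Ifi44, a cytoplasmic antiviral protein, rose by 4.88 ± 0.96 in B6, Ifi47, an immunity-related GTPase, by 3.30 ± 0.71, and Ifi35 and Nmi, which bind each other, by 2.37 ± 0.35 and 1.47 ± 0.34.

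Smaller changes were found for the proteasome activator PA28, which favours peptides for antigen presentation. Psme2 (ENSMUSG00000079197, chr14:55587441-55591113), its beta subunit, was at 18.4, 18.2 and 17.0 CPM in B6 Ctrl and 26.2, 31.9 and 29.1 in B6 KD. D2 Ctrl had 17.9, 17.3 and 23.6, and D2 KD 22.9, 21.8 and 19.7. B6 KD stood clear of B6 Ctrl with little spread, and every D2 KD library lay inside the D2 Ctrl range. Psme2 rose by 0.70 ± 0.13 in B6 (edgeR adjusted p 0.0361), against 0.13 ± 0.13 in D2 (edgeR adjusted p 1). Psme1, the alpha subunit, had an estimate of 0.47 ± 0.14 in B6 and was not called (edgeR adjusted p 0.0864), although its B6 groups did not overlap.

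Both galectin-related genes were called higher in B6, against 1.76% of all genes tested. Lgals3bp (ENSMUSG00000033880, chr11:118392751-118402092), a secreted glycoprotein that binds galectins, was at 27.5, 37.0 and 20.7 CPM in B6 Ctrl and 254, 379 and 178 in B6 KD. In D2 it was at 24.8, 35.5 and 77.4 in Ctrl and 163, 143 and 61.0 in KD. B6 KD was clear of B6 Ctrl, and the library labelled D2 KD 3 lay inside the D2 Ctrl range. Its B6 change was 3.25 ± 0.51 (edgeR adjusted p 0.0326) and its D2 estimate 1.41 ± 0.47 (edgeR adjusted p 1). Lgals9, a galectin that regulates immune cells, rose by 2.21 ± 0.43 in B6.

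Of the 5 remaining members, 4 were called higher in B6, against 1.76% of all genes tested. Epsti1 (ENSMUSG00000022014, chr14:77904239-78002657), an epithelial stromal interaction protein also induced in macrophages, was at 1.02, 0.994 and 0.752 CPM in B6 Ctrl and 6.24, 8.68 and 2.54 in B6 KD. D2 libraries were at 1.55, 0.566 and 1.45 in Ctrl and 2.27, 4.02 and 0.917 in KD. The B6 groups did not overlap, whereas in D2 the library labelled D2 KD 3 lay inside the Ctrl range. Epsti1 rose by 2.65 ± 0.59 in B6 (edgeR adjusted p 0.0453), and its D2 estimate was 0.99 ± 0.57 (edgeR adjusted p 1). Xaf1, a partner of the apoptosis inhibitor XIAP, rose by 2.48 ± 0.53, Tor3a, a torsin ATPase, by 1.72 ± 0.35, and Shisa5, an endoplasmic reticulum protein, by 1.07 ± 0.14. Tdrd7, a tudor domain protein, had 0.53 ± 0.13 and narrowly missed the threshold (edgeR adjusted p 0.0514), although its B6 groups did not overlap.

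**Figure D3:**
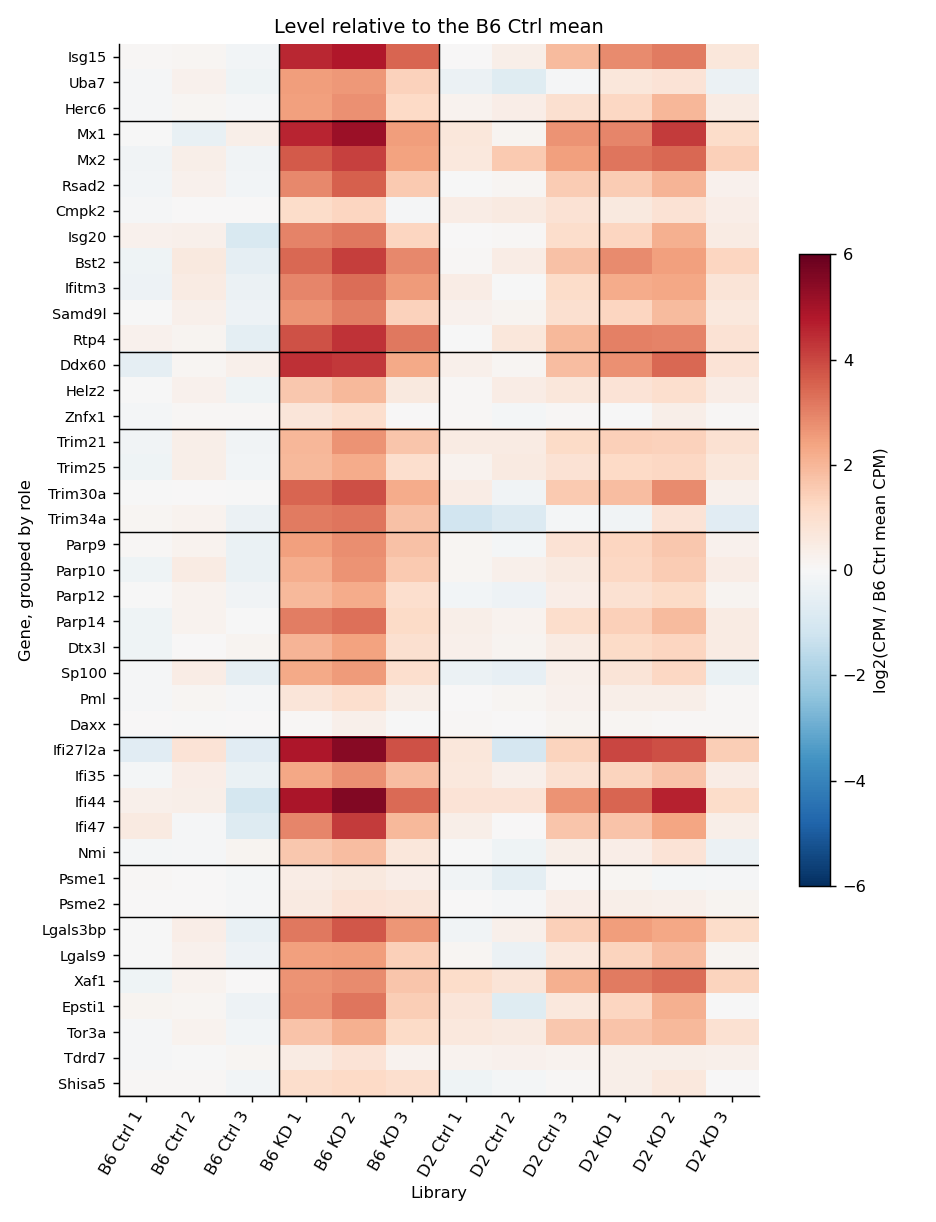
Level of each of the 41 genes (rows, grouped by role with lines between the roles) in the 12 libraries (columns), as log2 of CPM over the mean of B6 Ctrl. B6 KD 1 and B6 KD 2 are the darkest columns, D2 KD 1, D2 KD 2 and D2 Ctrl 3 are paler, and the library labelled D2 KD 3 resembles Ctrl.

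The libraries of a group differed in the same way across most members. Taking the ratio of each gene to the Ctrl mean of its own strain, the median over the 41 genes was 5.59 in B6 KD 1, 6.79 in B6 KD 2 and 2.73 in B6 KD 3. In D2 KD the medians were 1.78, 2.50 and 0.962. B6 KD 3 was the lowest B6 KD library for 40 of 41 members, and the library labelled D2 KD 3 was the lowest D2 KD library for 39. Hp1bp3 stood at 61.0%, 59.9% and 85.2% of its Ctrl mean in B6 KD 1, 2 and 3, and at 78.6%, 72.2% and 102% in D2 KD 1, 2 and 3. Within each strain the KD library with the most Hp1bp3 mRNA was the one with the lowest members, an arrangement seen over 3 libraries a strain and not tested.

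Among Ctrl libraries, D2 Ctrl 3 stood apart, with a median ratio of 1.36 to its own Ctrl mean. It was the highest D2 Ctrl library for 39 of 41 members and lay above all B6 Ctrl libraries for 37. The library labelled D2 KD 3 was inside the D2 Ctrl range for 36 members, above it for 3 (Ifi27l2a, Znfx1 and Tdrd7) and below D2 Ctrl 3 for 38. With the library labelled D2 KD 3 left out, the D2 log2 fold change of KD was 1.96 for Isg15, 2.04 for Mx1, 2.13 for Ddx60, 1.62 for Trim30a, 1.10 for Parp14, 1.16 for Sp100, 0.19 for Psme2, 1.74 for Lgals3bp and 1.38 for Epsti1, larger than with it for each of these 9 genes, and none was called by edgeR.

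**Figure D4:**
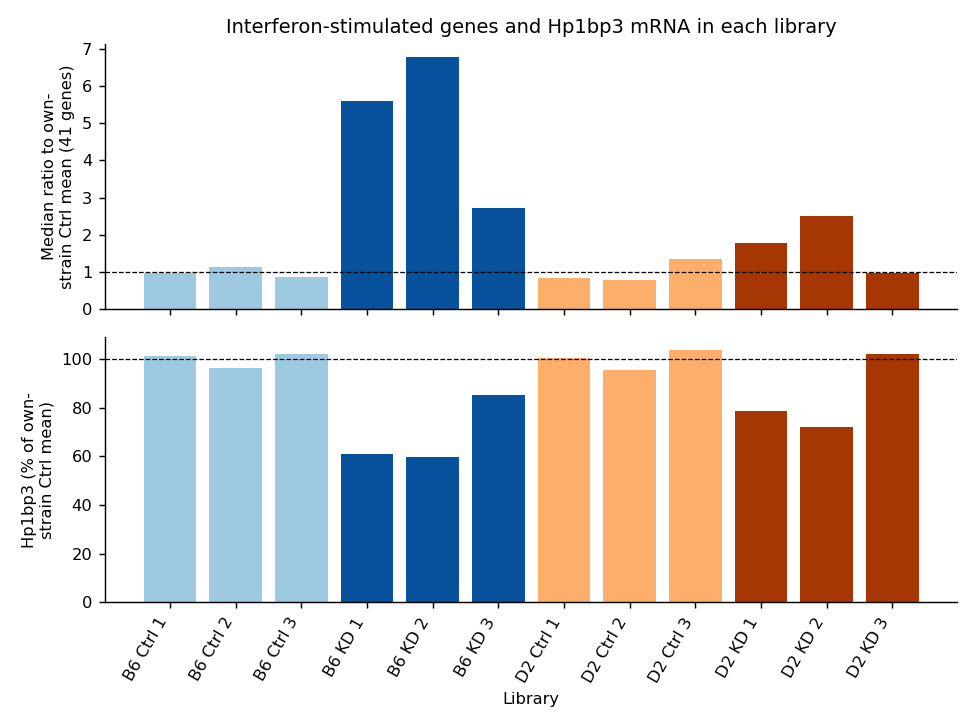
Median over the 41 genes of the ratio to the Ctrl mean of the same strain (upper panel, y axis from 0) and Hp1bp3 CPM as a percentage of that mean (lower panel), for each library (x axis). The dashed lines mark the Ctrl mean. B6 KD 2 has the highest median ratio, 6.79, and 59.9% Hp1bp3, and the library labelled D2 KD 3 has 0.962 and 102%.

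The question whether the change differed between strains was addressed by the interaction of strain and treatment. Every member had a smaller estimate in D2 than in B6, with a median interaction of -1.62 on the log2 scale, and 0 of 41 interactions were called by edgeR, where 0% of all genes were called and the smallest adjusted p over the members was 0.821. An unadjusted interaction p below 0.05 was found for 31 members, against 5.91% of all genes, and for 23 without the library labelled D2 KD 3, against 4.35%. DESeq2 and limma-voom called 0 as well, with 0.0746% and 0% of all genes called, and 33 and 13 members had an unadjusted p below 0.05, against 7.18% and 5.36% of all genes. For Isg15 the interaction was -2.86 ± 0.89, for Mx1 -2.81 ± 1.25, for Ifi27l2a -2.08 ± 1.02 and for Psme2 -0.57 ± 0.18 (log2 ± SE). Omitting the library labelled D2 KD 3 gave a median interaction of -1.27, and -2.42 for Isg15, and omitting D2 Ctrl 3 gave -1.27 and -2.03. In level, 40 of 41 members had a lower mean CPM in D2 KD than in B6 KD, with a median ratio of 0.464, and Xaf1 was the exception at 55.5 ± 31.8 CPM against 43.1 ± 16.6 (SD, n = 3), a gene with decimal counts in 11 of 12 libraries, so that its level is uncertain too. With D2 KD 1 and D2 KD 2 only, the median ratio was 0.582 and 39 of 41 were lower. The order of the genes by fold change was alike in both strains, with a Spearman rho of 0.91 and a Pearson r of 0.92 over the 41 genes. That is a description across genes of shared libraries, which are not independent replicates, and rho was 0.93 without the library labelled D2 KD 3.

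Averaged over both strains, the median log2 fold change of the members was 1.59, and all 41 estimates were above 0. No member was called by edgeR, where 0% of all genes were called, although 40 members had an unadjusted p below 0.05, against 19.2% of all genes, and the smallest adjusted p was 0.054. The number called changed with single libraries. Without B6 KD 3, D2 Ctrl 3 or the library labelled D2 KD 3, edgeR called 38, 31 and 36 members, with backgrounds of 2.50%, 2.03% and 4.97%. DESeq2 called 38 members, with a background of 7.40%. limma-voom called 0 of 41, where 0% of all genes were called, with 39 at an unadjusted p below 0.05, against 18.8% of all genes. With library quality weights, an alternative chosen after seeing the data, limma-voom called 40, with a background of 10.1%. Those weights were lowest for B6 KD 3, at 0.245, and D2 Ctrl 3, at 0.439. The newer quasi-likelihood method of edgeR called 5, with a background of 0.0946%.

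In Ctrl mice, the strains were compared for baseline levels. Reads of each strain had been aligned to that strain's own genome, so a strain difference in level also holds any difference between the genomes used. No member was called by edgeR, where 14.0% of all genes were called, and the median log2 difference of D2 against B6 was 0.57, against 0.02 over all genes tested. Without D2 Ctrl 3 the median was 0.23. All D2 Ctrl libraries lay above all B6 Ctrl libraries for 9 members (Ifi44, Mx2, Xaf1, Trim21, Herc6, Cmpk2, Tor3a, Daxx and Tdrd7), against 13.9% of all genes, and no member had the reverse, against 17.9%. Xaf1 was at 6.47, 8.83 and 7.84 CPM in B6 Ctrl and 16.6, 13.4 and 33.5 in D2 Ctrl, a log2 difference of 1.46 ± 0.52 (edgeR adjusted p 0.0976), with the limit of shared reads just given. DESeq2 called 3 of 41, with a background of 14.7%, namely Xaf1, Mx2 and Tor3a at adjusted p-values of 0.0193, 0.0245 and 0.0267. Leaving out the library labelled D2 KD 3, edgeR called Xaf1 (adjusted p 0.028), with a background of 13.6%. Leaving out B6 KD 3, it called Cmpk2 (adjusted p 0.00833), with a background of 15.3%.

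Other genes of the pathway, 24 in all, were followed beside the members, of which 17 were tested. None of the 4 receptor genes or 3 kinase genes was called in B6 by edgeR, and 1 of the 3 negative regulators was, against 2.64% of all genes tested. An unadjusted edgeR p below 0.05 was found in B6 for 2 of the 4 receptor genes, Ifnar2 and Ifngr1. It was found for 0 of the 3 kinase genes, and for 20.6% of all genes. Among transcription factors, Stat2, Irf9, Irf7 and Irf8 were called higher in B6, and in D2 none of the genes named here was called. Irf7, the amplifier of type I interferon production, was at 3.05, 3.33 and 1.91 CPM in B6 Ctrl and 71.4, 112 and 29.96 in B6 KD, and at 3.53, 4.25 and 8.74 in D2 Ctrl and 21.9, 28.1 and 4.78 in D2 KD. Its libraries followed the same arrangement as the members, with B6 KD 3 and the library labelled D2 KD 3 lowest in their groups, and its B6 log2 fold change was 4.69 ± 0.71. Stat2 rose by 1.40 ± 0.22, Irf9 by 1.73 ± 0.32 and Irf8 by 1.61 ± 0.35. Usp18, which removes ISG15 and blocks the receptor, rose by 4.32 ± 0.79. The 7 interferon genes searched (Ifnb1, Ifna1, Ifna2, Ifna4, Ifng, Ifnl2, Ifnl3) were too low to test, with at most 2 counts in any library, too few to compare groups at this depth.

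Markers of other cells were summed in each library, to show which moved beside the members. The 8 microglial markers summed to 412 to 476 CPM in B6 Ctrl and 588 to 953 in B6 KD, without overlap. The rise was uneven among them, with mean CPM of 44.6 in B6 Ctrl and 138 in B6 KD for C1qa, but 31.3 and 34.6 for P2ry12. None of the 8 was called in B6, with 7 at an unadjusted edgeR p below 0.05, against 20.6% of all genes. In D2 they summed to 387 to 630 in Ctrl and 394 to 691 in KD, which overlap. Monocyte and neutrophil markers, 6 genes, summed to 0.432 to 3.94 CPM in B6 Ctrl and 2.70 to 17.6 in B6 KD, with 1 of 5 tested genes called (Plac8), and in D2 to 1.08 to 1.74 in Ctrl and 1.99 to 5.58 in KD, and 2 of the 6 were at 0 in some library. T lymphocyte markers summed to 0.665 to 1.46 CPM in B6 Ctrl and 1.39 to 7.28 in B6 KD, with 4 of the 6 found at 0 in some library, and in D2 to 0.453 to 1.37 in Ctrl and 0.633 to 0.868 in KD. The 6 astrocyte markers summed to 2416 to 2605 CPM in B6 Ctrl and 3246 to 4481 in B6 KD, with Aqp4 called. Most of that difference lay in Gfap, whose mean CPM was 606 against 1964 under KD, and in Aqp4, with 171 against 393, whereas Aldoc had 762 against 586. In D2 the astrocyte sums overlapped, at 2414 to 4689 in Ctrl and 2431 to 3740 in KD. Endothelial, neuron and hippocampal subfield sums overlapped between Ctrl and KD in both strains. In B6 Ctrl and B6 KD, endothelial sums were 240 to 306 and 294 to 327.5 CPM, neuron sums 5386 to 5886 and 4645 to 5743, and subfield sums 604.5 to 715.5 and 537 to 643. The part of these cells in the members' change was not tested. Choroid plexus markers, 7 genes, spread from 60.5 to 5216 CPM over the libraries, with low sums in B6 Ctrl 1, B6 Ctrl 3, B6 KD 1, D2 Ctrl 1 and D2 KD 2. B6 KD 1 and D2 KD 2 had low sums beside high member levels, and B6 KD 2 and D2 KD 1 had high sums beside high member levels. B6 KD 3, at 5125, and the library labelled D2 KD 3, at 5216, had the highest sums of their groups and, for most members, the lowest levels. D2 Ctrl 3, at 5097, had the highest sum of D2 Ctrl and, for most members, the highest level. A relation between these sums and the members was not tested. With the choroid plexus score as a covariate, the B6 member median was 2.42, and 0 of 41 were called, at a smallest adjusted p of 0.0553 (edgeR). In that fit 0% of all genes were called, and 40 of 41 members had an unadjusted p below 0.05, against 18.2% of all genes.

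Presence of the ISRE core was set beside the B6 change for the 33 members with a promoter in the reference table. The 12 with a match had a median B6 log2 fold change of 2.86, from 0.47 for Psme1 to 4.37 for Isg15, and 10 of them were called. For the 21 without a match the median was 2.08, from 0.13 for Daxx to 4.88 for Ifi44, and 18 were called. Over the whole list 36 of 41 members were called in B6, against 2.64% of all genes tested. Both classes span small and large changes, and no test was made of the difference.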

How the data were processed

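Whole hippocampus of 12 mice was profiled by mRNA sequencing. Per the study's methods, trimmed reads were processed with RSEM 1.2.12 and Bowtie2 2.2.0, B6 reads against the C57BL/6J genome and D2 reads against the DBA/2J genome, and reads of a repeat run were joined for most samples. The submitters' processing notes name these tools, and the annotation release is not given in the sources used here. The authors deposited a table of expected counts per gene, which RSEM estimates by sharing out reads that fit several genes, and 15.82% of its values were not whole. A second, normalized table was not used here. Gene symbols that a spreadsheet had turned into dates, 27 in all, were restored.

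Expected counts were rounded and fitted with edgeR 4.0.16 in R 4.3.3 (filterByExpr, TMM, quasi-likelihood test with robust estimation), with a mean for each of the 4 groups. P-values were adjusted by the Benjamini-Hochberg method over the 15853 genes tested, and a gene was called at an adjusted p below 0.05. The standard error was the log2 fold change divided by the root of F. DESeq2 1.42.0, limma 3.58.1, other filters and scalings, covariates and the omission of each library served as alternatives. The fits were tested on simulated counts. Genes given in every library were Isg15 and, for each role, the member with the largest B6 change at a mean CPM of at least 1. The members, roles and lists were chosen with earlier results of these data known. Each library came from a separate mouse. Gene coordinates are those of GRCm38, and promoter sequences are from RefSeq on GRCm38.p6. Part of the pathway list is not reported here.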

Additional observations from a re-analysis of the deposited data

How the results depend on the processing

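In KD against Ctrl in B6, where 36 members were called, limma-voom called 19, limma-voom without robust estimation 21, and edgeR with the total count or the choroid plexus score as a covariate 0 in each case. In both covariate fits 0% of all genes were called. With the total count, the member median was 2.33, and 40 of 41 members had an unadjusted edgeR p below 0.05, against 19.4% of all genes. Leaving out 1 library gave between 0 and 39. For KD averaged over strains, where 0 were called, DESeq2 called 38, limma-voom with library quality weights 40 and the newer quasi-likelihood method 5 (Bst2, Ifi27l2a, Ifitm3, Lgals3bp and Shisa5), and leaving out 1 library gave between 0 and 38. For D2 against B6 in Ctrl, DESeq2 called 3, and leaving out 1 library gave 0 or 1. Counts for KD in D2 and for the interaction were 0 under every alternative run. Member medians ranged over the omitted libraries from 2.10 to 2.58 in B6, from 0.45 to 1.11 in D2 and from 1.43 to 1.76 averaged. limma-voom without robust estimation and with quality weights was chosen after seeing the data. The cause of these shifts was not tested.

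With 3 libraries a group, adjusted p-values near the threshold and 1 Ctrl and 1 KD library that stand apart in D2, the absence of D2 calls does not show that the members were unaffected there. The lowest member count in any library was 8, and 38 of 41 members had at least 10 counts in every library. No paired analysis was possible because the replicate numbers, given in listing order, only name separate mice.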

Other observations

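Socs3, a feedback inhibitor of cytokine signalling, stood at 54.2 CPM in B6 KD 3, against 1.91 to 10.3 in the other 11 libraries, while the members were lowest of the B6 KD libraries there, and its B6 change was not called (edgeR adjusted p 0.0614). Prox1, a marker of dentate gyrus granule cells, was at 8.48 CPM in D2 Ctrl 3 and at 15.6 and 7.05 in D2 KD 1 and D2 KD 2, the D2 libraries with the highest member levels, against 33.2 to 50.7 in the other D2 libraries. In B6 it ran from 67.9 to 113 CPM. C1ql2, another granule cell marker, had a different order, with 77.6 CPM in D2 KD 1 and 49.15 in D2 Ctrl 3, against 24.2 to 32.3 in the other D2 libraries, D2 KD 2 included. Gfap, an astrocyte gene that rises with gliosis, was at 2204 CPM in D2 Ctrl 3, against 432 and 940 in the other D2 Ctrl libraries.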
